A study of Homo sapiens with 16 samples.

Results

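WEE1 and 9 other genes of entry into and exit from mitosis were followed in the RNA that came down with RISC, the RNA-induced silencing complex, for 7 microRNAs (miRNAs). They are 10 of the 19077 genes of the count table: WEE1, CDC25A, CDC25B, CDC25C, CDK1, CCNB1, CDC20, AURKA, TTK and TOP2A. The members were chosen by symbol from earlier results of these same data, in which WEE1 and CDC20 were already seen to be high with mir1180-3p. The mir1180-3p values of all 10 are therefore given as a description, with no test. Each of the 10 symbols had 1 entry, and all 10 passed the filter on low counts in every comparison.

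CDK1 bound to cyclin B drives a cell into mitosis. WEE1 holds this kinase back by phosphorylating it, the CDC25 phosphatases remove that phosphate, and the balance of these opposing enzymes works as a switch. Once chromosomes are attached to the spindle, CDC20 activates the anaphase-promoting complex (APC/C), a ubiquitin ligase that marks cyclin B for destruction and lets the cell leave mitosis. A miRNA guides RISC to mRNAs mainly through its seed, the stretch from base 2 to base 8, and usually lowers their stability and translation.

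The cells were HEK 293, a transformed human line of embryonic kidney origin. Targets were captured by RISC trap, in which a dominant-negative GW182 protein keeps a mRNA on the loaded complex long enough for precipitation. There were 2 libraries each, 12 in all, of mir550-3p, mir1180-3p, mir3613-5p, mir1260a-5p, mir1301-3p and mir1271-5p. For mir124-3p there was 1 library titled Solid and 3 titled Illumina. All 16 share the cell line, the trap, Trizol extraction and a SOLiD library kit, and the labels name neither a library without a miRNA nor a second cell line. A value is thus an amount recovered with RISC compared with other miRNAs, and the amount of the mRNA in the cell was not measured. More RISC on a transcript and more of that transcript in the cells cannot be told apart, nor can fewer cells in mitosis and less RNA per cell.

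Mature sequences of 6 of the 7 miRNAs matched RefSeq entries (build GRCh38.p14) and are shown because the miRNA is what the groups differ in by label. Capitals mark bases 2 to 8. For mir1260a-5p the entry is named miR-1260a. For mir550-3p it is miR-550a-3p, which the loci MIR550A3 and MIR550A2 share.
mir1180-3p: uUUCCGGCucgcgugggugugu
mir1260a-5p: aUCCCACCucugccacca
mir1271-5p: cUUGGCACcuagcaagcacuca
mir1301-3p: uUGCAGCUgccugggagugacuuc
mir3613-5p: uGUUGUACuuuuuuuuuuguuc
mir550-3p: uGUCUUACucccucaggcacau
The 6 have 6 different seeds, so no pair of groups shares one. The mir1180-3p seed has 5 G or C bases of 7 and so has that of mir1260a-5p. The mir1180-3p sequence lies on the minus strand at chr17:19344513-19344534. Whether transcripts of the 10 genes carry matches to these seeds was not analysed here.

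Total counts lay between 7612758 and 26527365 per library, and the smallest count of any of the 10 genes in any library was 69 (CDC20). Libraries of 1 group differed by far more than counting noise, with a chi-square per degree of freedom from 6.45 (Illumina replicates 1 and 3) to 87.7 (Illumina replicates 2 and 3). Nothing in the labels says that all of them came from separate cultures, so p-values measure the spread between these libraries, which may be technical. Illumina replicate 2 stood apart from replicates 1 and 3, with 1.07% of its counts on TNRC6A, the GW182 gene, against 4% and 3.97%. All 9 markers of HEK 293 cells had counts in all 16 libraries, but KRT8 went down to 0.329 CPM and PAX2 to 0.894. The 6 fibroblast and 5 liver markers also had counts in all 12 libraries of the 6 miRNAs. Having counts thus does not tell cell types apart here. The mir1301-3p libraries stood apart too: their scaling factors were 1.28 and 1.31, against 0.919 to 1.13 in the 10 libraries of the other 5 miRNAs.

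WEE1 was the member that stood out with mir1180-3p. Its normalised level, in CPM (per-million counts) after scaling over the 16 libraries, was 1962 and 2843 in the mir1180-3p libraries. It was 526 and 294 with mir1260a-5p, 458 and 259 with mir1271-5p, and 515 and 330 with mir1301-3p. With mir3613-5p it was 460 and 414, with mir550-3p 354.2 and 283.5, with mir124-3p_Solid 469.6, and in the Illumina libraries 343, 429 and 349.7. Both mir1180-3p libraries thus lay far above the other 14, which stayed between 259 and 526. The group mean was 2402 ± 624 (SD, n = 2) with mir1180-3p and 389 ± 98.2 (SD, n = 10) over the libraries of the other 5 miRNAs. On the fitted log2 scale the difference was 2.51 ± 0.26 (SE), a 5.71-fold ratio, and 69 of 17658 genes tested had a larger one.

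Below mir1180-3p, the order of WEE1 means was mir124-3p_Solid, mir3613-5p, mir1301-3p, mir1260a-5p, mir124-3p_Illumina, mir1271-5p and mir550-3p. From mir3613-5p down, neighbouring groups in this order overlapped. The 5 miRNAs other than mir1180-3p did not differ in WEE1 past the threshold (edgeR F test among the 5, adjusted p = 0.764). Where 1 of them is set against the other 5, the reference holds mir1180-3p, and the fitted WEE1 difference was below 0 in all 5 cases, from -0.89 ± 0.32 with mir550-3p to -0.21 ± 0.31 with mir3613-5p. With mir1180-3p left out of the reference, the 5 differences lay between -0.40 ± 0.32 (mir550-3p) and 0.31 ± 0.30 (mir3613-5p). These comparisons share libraries and are not independent.

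**Figure D1:**
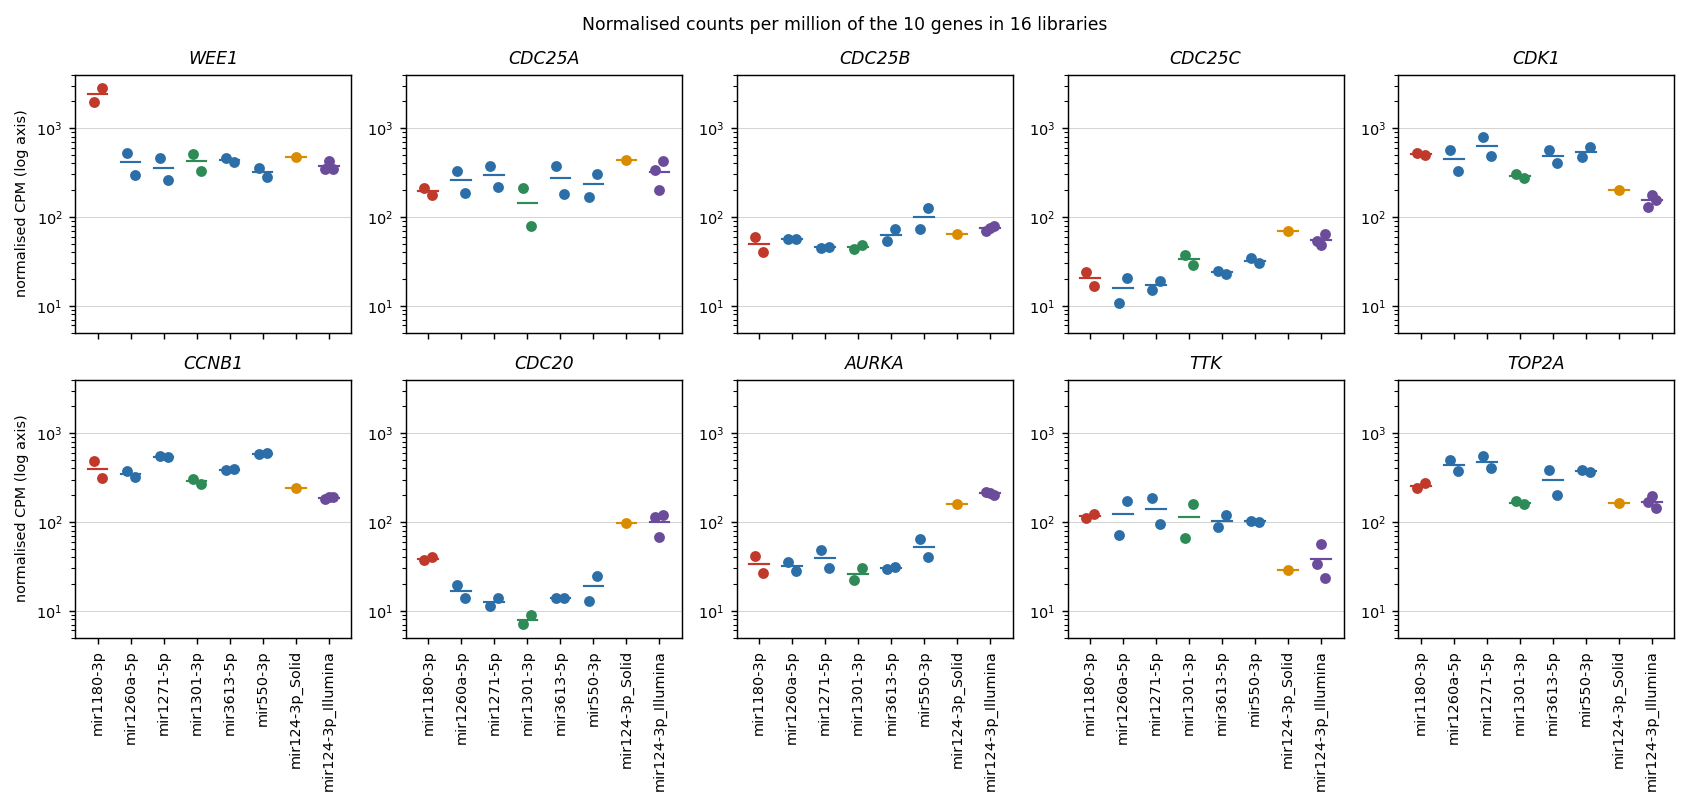
Normalised CPM (log axis) of the 10 genes by group, with 1 point per library and a line at the group mean; mir1180-3p is red, mir1301-3p green, the other 4 miRNAs with 2 libraries blue, Solid orange and Illumina purple. WEE1 stands at 1962 and 2843 with mir1180-3p and between 259 and 526 elsewhere, and CDC20, AURKA and CDC25C are highest in the 4 mir124-3p libraries.

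The share of WEE1 within the counts of the 10 genes does not depend on scaling between libraries, although its size also depends on transcript length. With mir1180-3p it was 53.2% (95% Wilson interval 52.8% to 53.7%) and 65.3% (64.8% to 65.8%). These intervals cover counting error only, and the libraries of mir1180-3p differed by far more than that. In the other 14 libraries the lowest share was 11.4% (11.1% to 11.8%, mir550-3p replicate 2) and the highest 30.6% (29.9% to 31.3%, mir1301-3p replicate 1). WEE1 counts per count of CDK1, the kinase that WEE1 restrains, were 3.79 and 5.71 with mir1180-3p. They were between 2.28 and 2.62 in the 4 mir124-3p libraries, where CDK1 was low, and between 0.463 and 1.70 in the 10 others. The 3 sets of libraries did not overlap in this ratio. The mir1180-3p ratios hold the WEE1 values by which the members were chosen, so this separation is no further support. How many other pairs of genes separate in this way was not analysed here. Summed over the 9 members without WEE1, mir1180-3p libraries held 1723 and 1512 CPM, within the range of 1057 to 2565 of the other 5 miRNAs.

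**Figure D2:**
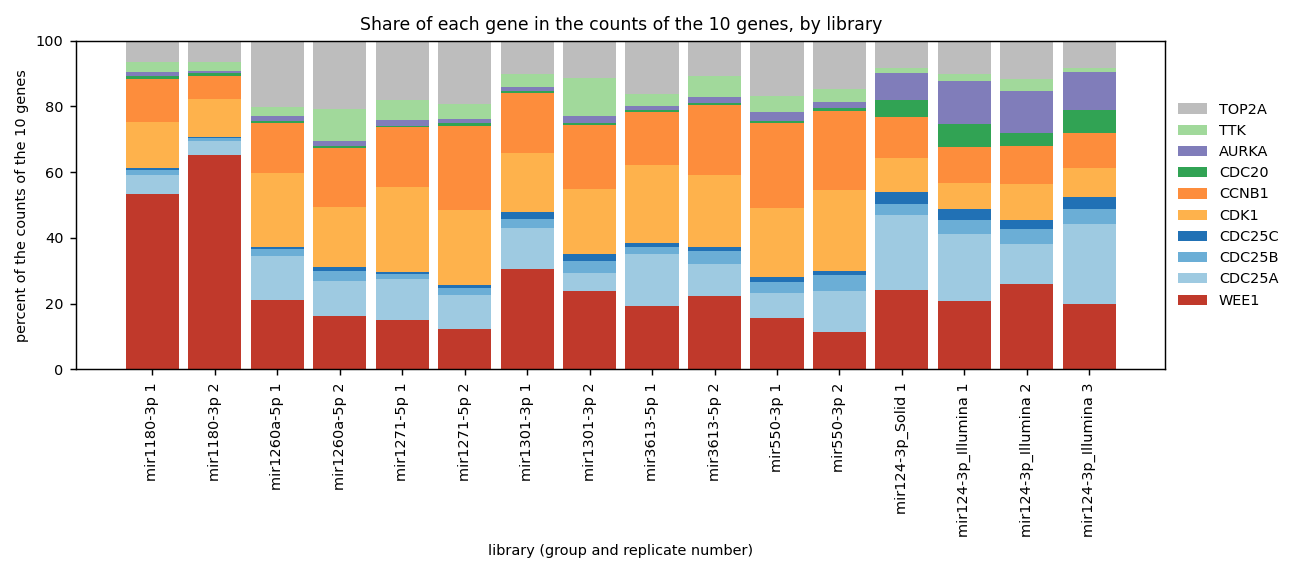
Percent of the counts of the 10 genes that fell on each gene, by library. WEE1 (red, at the base) takes 53.2% and 65.3% in the mir1180-3p libraries and at most 30.6% elsewhere, and AURKA and CDC20 (purple and dark green) widen in the 4 mir124-3p libraries.

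The other kinases of the WEE1 kind were not called with mir1180-3p. PKMYT1 phosphorylates CDK1 from the membranes of the Golgi and endoplasmic reticulum, and it had 32.9 and 62.4 CPM with mir1180-3p against 49.8 to 102 over the other 10 libraries (log2 difference -0.73 ± 0.32, edgeR adjusted p = 0.327). WEE2, the form of the egg cell, had few counts, with 2.76 and 3.95 CPM with mir1180-3p (0.03 ± 0.44, adjusted p = 0.988). In the comparisons of the other 5 miRNAs neither was called.

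Of the 11465 genes that averaged 5 CPM or more in the 12 libraries of the 6 miRNAs, those with levels most like WEE1 were RSU1, UBQLN2, VEGFA, AMD1 and MESDC2. Pearson's r of log2 CPM with WEE1 was 0.976 for RSU1 and at least 0.956 for each of the 5, over 12 libraries that include both of mir1180-3p. RSU1 held 195 and 231 CPM with mir1180-3p and between 34.5 and 75.5 in the other 10 libraries. Over those 10 libraries alone r with WEE1 was 0.782 for RSU1, 0.732 for UBQLN2, 0.558 for VEGFA, 0.555 for AMD1 and 0.689 for MESDC2. The libraries share their cell line and scaling, and by rank correlation 1 of the 5 stayed among the leading 5. Of the other 9 members, CDC20 had the highest r with WEE1, 0.701, which was -0.28 without the mir1180-3p libraries.

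CDC25A, CDC25B and CDC25C, which reverse the work of WEE1, showed no such rise with mir1180-3p. CDC25A, the form that also acts at the start of DNA synthesis, had 213 and 178.5 CPM there and 79.5 to 376 in the libraries of the other 5 miRNAs (fitted log2 difference -0.37 ± 0.38). CDC25B, taken to start the activation of cyclin B kinase at the centrosome, had 59 and 40.4 CPM against 44 to 126.5 (-0.36 ± 0.30). CDC25C, which amplifies it, had 24.1 and 16.7 CPM against 10.6 to 37.6 (-0.29 ± 0.33). All 3 pairs of mir1180-3p libraries overlapped the other 10. WEE1 counts per CDC25A count were 9.21 and 15.9 with mir1180-3p and between 0.928 and 4.15 with the other 5 miRNAs. This ratio, too, holds the WEE1 values by which the members were chosen.

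CDC25B was highest with mir550-3p, at 73.8 and 126.5 CPM. It was 55.9 and 56.4 with mir1260a-5p, 44.3 and 46.4 with mir1271-5p, 44 and 47.8 with mir1301-3p, and 52.9 and 72.6 with mir3613-5p. Both mir550-3p libraries lay above the other 10, but the lower of them by a small step only. The log2 difference from the other 5 miRNAs was 0.91 ± 0.27. It was not called by edgeR (adjusted p = 0.101) but was by DESeq2 (0.94, adjusted p = 0.0305) and in a fit of all 16 libraries (0.96, edgeR adjusted p = 0.0231).

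CDK1 and its partner cyclin B1 (CCNB1) lay inside the range of the other 5 miRNAs with mir1180-3p. CDK1 was at 518 and 498 CPM with mir1180-3p, a log2 difference of 0.02 ± 0.28. CCNB1 was at 481.5 and 315 CPM there, a difference of -0.17 ± 0.26. With mir550-3p CCNB1 reached 579 and 594 CPM, above the other 10 libraries, and with mir1271-5p it was at 554 and 535, next in the order. Its log2 difference from the other 5 miRNAs was 0.57 ± 0.24 with mir550-3p (edgeR adjusted p = 0.254) and 0.54 ± 0.24 with mir1271-5p (adjusted p = 0.521), so neither was called. CDC25B and CCNB1 were the 2 members with both mir550-3p libraries above the other 10 after scaling, a state that 5.01% of 18271 genes showed. Without scaling factors both genes overlapped the other 10: CCNB1 had 541.7 and 550.7 CPM with mir550-3p, against 579 in mir1271-5p replicate 2.

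CDC20, the activator of the APC/C, was the other member that was high with mir1180-3p. It had 37.6 and 39.9 CPM there. It had 19.6 and 13.8 with mir1260a-5p, 11.4 and 13.9 with mir1271-5p, 7.09 and 8.86 with mir1301-3p, 14.1 and 13.9 with mir3613-5p, and 12.9 and 24.8 with mir550-3p. In the mir124-3p libraries it had 97.9 (Solid) and 114, 67.8 and 120 (Illumina replicates 1, 2 and 3). The 16 libraries thus fell into 3 ranges that did not overlap: mir124-3p highest, mir1180-3p next, and the other 5 miRNAs at or below 24.8. The mir1180-3p values are those by which CDC20 was chosen. Of 18271 genes, 3.65% had both mir1180-3p libraries above the other 10, and 10.6% had all 4 mir124-3p libraries above the other 12. The mean of CDC20 was 38.7 ± 1.61 CPM (SD, n = 2) with mir1180-3p and 14.0 ± 5.06 (SD, n = 10) with the other 5 miRNAs, a fitted log2 difference of 1.41 ± 0.29. Its direction depends on the reference: set against mir124-3p_Solid alone, CDC20 was lower with mir1180-3p, by -1.32.

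The genes most like CDC20 over the 12 libraries were ALDH18A1, ZNF230, C7orf42, HABP4 and IDH3B, with r from 0.961 to 0.925. For ALDH18A1, an enzyme of proline synthesis, r was 0.902 over the 10 libraries without mir1180-3p, and for the 5 genes it was at least 0.819 there. Its levels were 55.8 and 64.7 CPM with mir1180-3p, 150.6 with mir124-3p_Solid and 11.9 and 12.3 with mir1301-3p. By rank correlation 2 of these 5 stayed among the leading 5.

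TTK, the kinase (also called MPS1) that starts the spindle checkpoint, had 111 and 122 CPM with mir1180-3p, inside the range of 66.8 to 185 of the other 5 miRNAs. Its fitted difference was -0.11 ± 0.38. TTK differed widely within 3 of the 6 pairs: 72 and 171 CPM with mir1260a-5p, 185 and 95.2 with mir1271-5p, and 66.8 and 158 with mir1301-3p. The others were closer, at 87 and 119 with mir3613-5p and 104 and 100.5 with mir550-3p. AURKA, the spindle-pole kinase, had 41.2 and 26.5 CPM with mir1180-3p and 22 to 64 with the other 5 miRNAs (-0.16 ± 0.33). TOP2A, which untangles DNA before chromosomes part, had 238 and 276 CPM against 159 to 547 (-0.47 ± 0.29).

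Of the 10 members, 2 (WEE1 and CDC20) had both mir1180-3p libraries above the other 10, a state that 3.65% of 18271 genes showed. Over all genes, 2.07% were called in this comparison, 339 higher and 27 lower, and since these values chose the members, nothing is read from the count. The median fitted difference of the 10 was -0.165, against -0.075 for all genes tested.

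Among the 119 other mitotic genes of 7 lists, 1 was called with mir1180-3p, or 0.84% against 2.07% of all genes. The lists were chosen with earlier results of these data known, so the call is no independent support. The gene was NCAPD2, a subunit of condensin, the complex that compacts chromosomes (log2 difference 2.16 ± 0.24, edgeR adjusted p = 2.57e-05). It had 160 and 163 CPM there and between 24.3 and 40.5 in the 10 libraries of the other 5 miRNAs. Against mir124-3p_Solid, where it had 84.2 CPM, the difference was 0.96 and was not called (adjusted p = 0.201). The 28 further genes of the CDK1 switch had 0 calls and a median of -0.005, the 20 of the spindle checkpoint 0 calls and -0.27, and the 26 of the APC/C and chromosome separation 0 calls and -0.235. For all genes the median was -0.075.

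With mir1301-3p, TOP2A fell, while the lower CDC20 was called with its high mir1180-3p values in the reference and not without them. CDC20 had a mean of 7.97 ± 1.25 CPM (SD, n = 2) against 20.2 ± 10.5 (SD, n = 10) over the other 5 miRNAs, a log2 difference of -1.19 ± 0.36 (edgeR adjusted p = 0.0358). That reference includes the 37.6 and 39.9 CPM of mir1180-3p by which CDC20 was chosen. With mir1180-3p left out of it the difference was -0.94 ± 0.36 and was not called (adjusted p = 0.0643), and in the test among the 5 miRNAs the adjusted p of CDC20 was 0.267. After scaling, both mir1301-3p libraries were the lowest of all 16 for CDC20. Without scaling factors they had 9.06 and 11.6 CPM, against 10.5 in mir1271-5p replicate 1. TOP2A had 165 ± 8.42 CPM against 366 ± 108, a difference of -1.10 ± 0.31 (edgeR adjusted p = 0.0292), and without mir1180-3p in the reference it was -1.25 ± 0.32 (adjusted p = 0.0165). Its 2 scaled values, 171 and 159, lay below the other 10 but within the 143 to 194 of the mir124-3p libraries. The count of 2 of 10 members called compares with 15.9% of the 17658 genes tested (2039 higher, 776 lower), and is no result about the members as a group. Without mir1180-3p in the reference it was 1 of 10, against 21.8% of all genes.

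CDK1 and CCNB1 also lay lower with mir1301-3p than with the other 5 miRNAs, but not than with mir124-3p_Solid, against which they were at 0.64 and 0.36. CDK1 had 303 and 276 CPM, below the 327 to 784 of the other 10 libraries (-0.83 ± 0.30, edgeR adjusted p = 0.0666), and DESeq2 called it (-0.86, adjusted p = 0.0346). CCNB1 had 308 and 269 CPM, below the 315 to 594 of the others (-0.61 ± 0.27, adjusted p = 0.109). After scaling, 4 members (CDK1, CCNB1, CDC20 and TOP2A) had both mir1301-3p libraries below the other 10, as 7.26% of 18271 genes did. Without scaling factors all 4 overlapped the other 10. CDK1 then had 387.5 and 361.2 CPM with mir1301-3p, against 370.7 in mir1260a-5p replicate 2. WEE1 (-0.38 ± 0.31, adjusted p = 0.380) and TTK (-0.01 ± 0.37, adjusted p = 0.985) were not called, and CDC25C leaned the other way (0.66 ± 0.31, adjusted p = 0.133).

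The calls of the mir1301-3p comparison depended on the scaling and on single libraries. Upper-quartile scaling moved the median of all genes from -0.02 to 0.38 and left CDC20 at -0.80 (adjusted p = 0.103) and TOP2A at -0.69 (adjusted p = 0.0604), neither called, while CDC25C at 1.06 was called (adjusted p = 0.0184). Without mir1301-3p replicate 1 CDC20 was at -0.99 (adjusted p = 0.234) and TOP2A at -1.10 (adjusted p = 0.174). Without replicate 2 they were at -1.44 (adjusted p = 0.143) and -1.12 (adjusted p = 0.169). Single calls were also lost without mir1180-3p replicate 1 or mir550-3p replicate 2 (CDC20, adjusted p = 0.0562 and 0.0528) and without mir550-3p replicate 1 (TOP2A, adjusted p = 0.0526).

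Other mitotic genes also lay lower with mir1301-3p. The median over the 119 was -0.53, against -0.02 for all genes. Called were 6 lower and 3 higher, or 5.04% and 2.52%, against 4.39% and 11.5% of all genes, so the share called lower was near that of all genes. Called lower were the checkpoint kinase CHEK1, MASTL (Greatwall, which protects CDK1 phosphorylations), the APC/C subunit CDC27, securin (PTTG1), the condensin subunit NCAPH and the kinesin KIF18A, between -0.89 and -1.33. Called higher were CKS1B (1.27 ± 0.25, edgeR adjusted p = 0.00859), a small partner of CDKs, the ubiquitin-conjugating enzyme UBE2S (1.18 ± 0.33, adjusted p = 0.0275) and BTRC (0.91 ± 0.30, adjusted p = 0.0476), part of the ligase that marks WEE1. Without either mir1301-3p library all 6 lower calls were lost, and upper-quartile scaling ended 5 of them, leaving NCAPH. The BTRC call was lost when any 1 of 9 of the 12 libraries was left out, with adjusted p from 0.0561 to 0.253, and its difference turned to -0.83 against mir124-3p_Solid. UBE2S was lost without either mir1301-3p library (adjusted p = 0.0538 and 0.54), and CKS1B without replicate 1 (adjusted p = 0.13). The 7 list medians lay between -0.42 (APC/C and chromosome separation) and -0.65 (chromosome condensation). With upper-quartile scaling the median over the 119 was -0.11, again below that of all genes.

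Markers of other cell types moved with mir1301-3p as well. Of 6 fibroblast markers, 5 were called higher, in a comparison where 11.5% of all genes were. The 6 summed to 50.8 and 147 CPM against 8.89 to 23.2 in the other 10 libraries. Some of the 5 were low even with mir1301-3p, such as DCN (1.13 to 3.58 CPM) and LUM (2.05 to 5.19). Of 5 blood markers tested, 2 were higher, with all 8 summing to 12.6 and 16.3 CPM against 6.24 to 14, and 2 of 5 liver markers were higher, summing to 9.86 and 13 CPM against 4.72 to 10.6. No marker of these lists was at 0 in both mir1301-3p libraries. The 9 HEK 293 markers had 0 calls and summed to 1166 and 1323 CPM against 1260 to 2127. The part of these markers in the mitotic values was not tested.

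**Figure D3:**
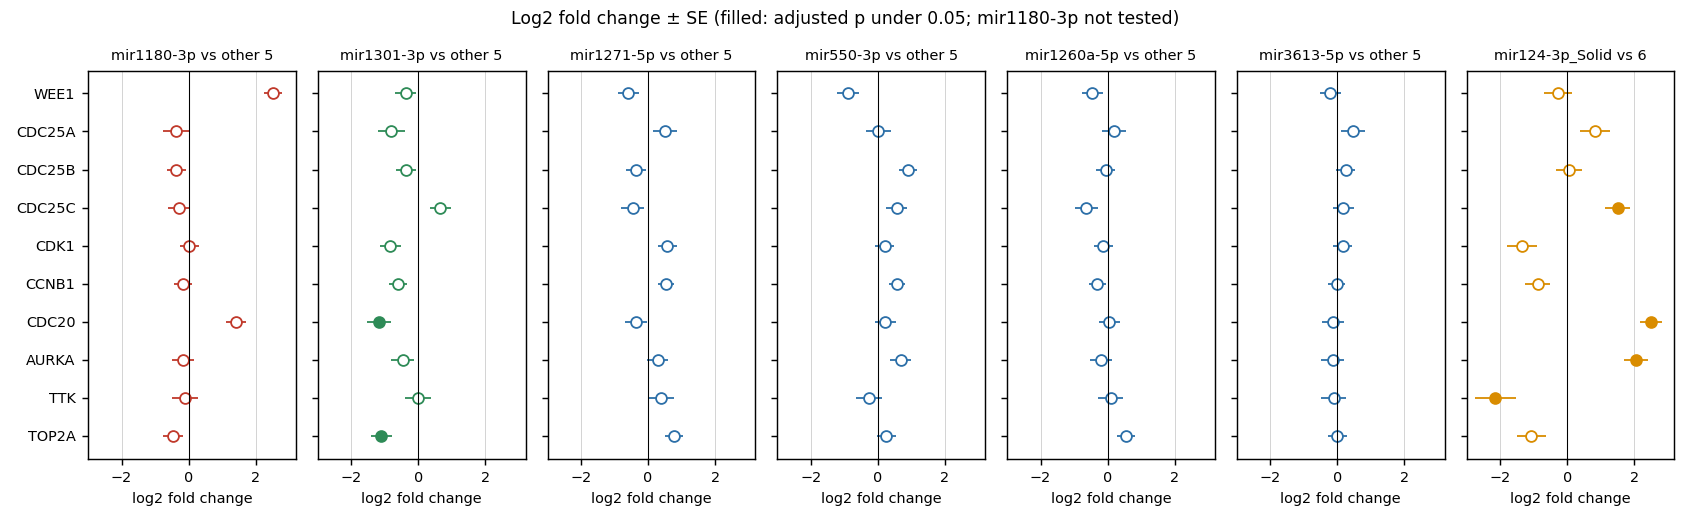
Fitted log2 fold change of each gene (± SE) for each of 6 miRNAs against the other 5 and for mir124-3p_Solid against the 6; filled points have an edgeR adjusted p under 0.05, and the mir1180-3p values were not tested. Filled points are CDC20 (with its mir1180-3p values in the reference) and TOP2A, both lower, with mir1301-3p, and CDC25C, CDC20 and AURKA (higher) and TTK (lower) with mir124-3p_Solid.

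With mir1271-5p, 0 of the 10 members were called by edgeR, against 0.606% of all genes, and 0 by DESeq2. At an unadjusted p under 0.05 there were 3: TOP2A (0.78 ± 0.27), CDK1 (0.58 ± 0.27) and CCNB1 (0.54 ± 0.24), all higher, with adjusted p of 0.351 to 0.531. Of all 17658 genes tested, 1650 were under that unadjusted threshold. TOP2A had 547 and 401 CPM and CDK1 784 and 479, in each case overlapping other groups. Across the 119 other mitotic genes 101 had a difference above 0, the median was 0.39 against 0.05 for all genes, and 0 were called. The spindle motor and cytokinesis list had 20 of 20 above 0 with a median of 0.54, and the spindle checkpoint list 18 of 20 with 0.50. With upper-quartile scaling the median over the 119 was 0.12 and that of all genes -0.19. Because mir1301-3p is part of the reference here, its low values enter this difference, and with mir1301-3p left out of the reference the median was 0.26.

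With mir550-3p, 0 members were called by edgeR, 1.51% of all genes were, and CDC25B, CCNB1 and AURKA had an unadjusted p under 0.05, all higher. WEE1 brought the number to 4, on the lower side, but its reference holds the mir1180-3p values by which it was chosen. Without them its difference was -0.40 ± 0.32 (unadjusted p = 0.222). Of all 17658 genes tested with mir550-3p, 2898 had an unadjusted p under 0.05. AURKA had 64 and 40.7 CPM, overlapping mir1271-5p (0.68 ± 0.31, adjusted p = 0.282). Of the 119 other mitotic genes 2 were called: MNAT1, a subunit of the kinase that activates CDKs, was higher (1.33 ± 0.31, adjusted p = 0.0406), and UBE2S was lower (-1.92 ± 0.41, adjusted p = 0.0254). Neither call held without either mir550-3p library: MNAT1 had adjusted p of 0.133 and 0.539 and UBE2S 0.169 and 0.437.

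With mir1260a-5p and mir3613-5p no member was called by edgeR or DESeq2, and 0 members had an unadjusted p under 0.05 in either comparison. The share of all genes called was 0.215% with mir1260a-5p and 0.0906% with mir3613-5p. Of 17658 genes, 941 and 2481 had an unadjusted p under 0.05. The largest of these member differences were those of CDC25C (-0.64, 95% interval -1.36 to 0.08) and TOP2A (0.54, -0.03 to 1.12) with mir1260a-5p. With mir3613-5p all 10 lay between -0.21 and 0.46. Their 95% intervals went as low as -0.90 (TTK) and as high as 1.21 (CDC25A), so changes of such size could have been missed. The 119 other mitotic genes had 0 calls in both comparisons, with medians of 0.03 and 0.05.

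In the test among the 5 miRNAs other than mir1180-3p, 0 members were called by edgeR, against 3.3% of all genes. TOP2A came nearest (adjusted p = 0.0875; DESeq2 called it, adjusted p = 0.0146), and CDC25B and CCNB1 also had an unadjusted p under 0.05. So did 4977 of all 17658 genes, and nothing is read from the count of members. Of the 119 other mitotic genes, UBE2S (adjusted p = 0.0402) and CKS1B (adjusted p = 0.0357) were called.

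**Figure D4:**
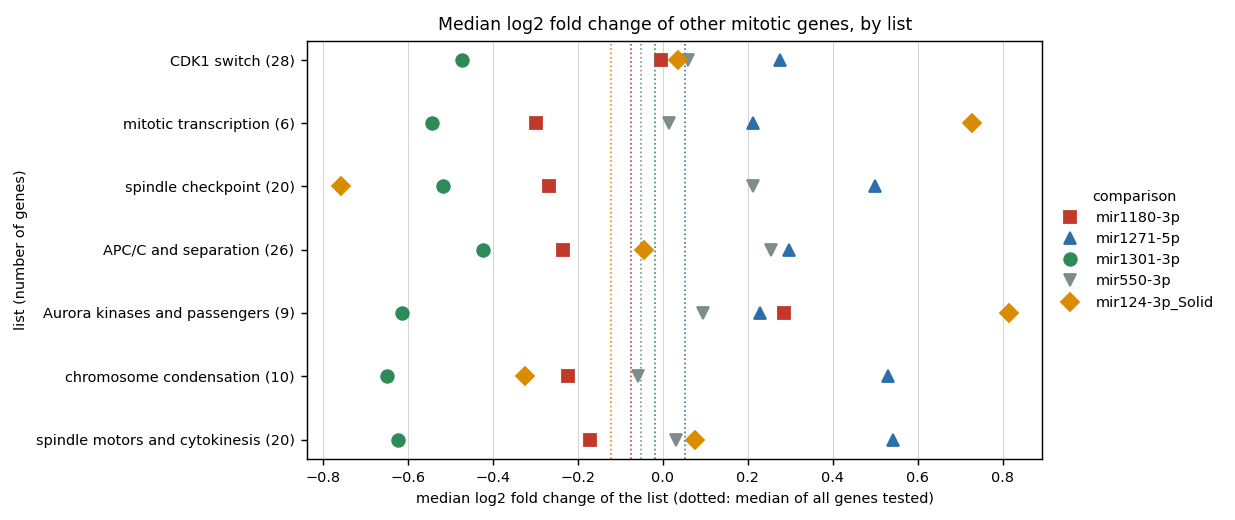
Median fitted log2 fold change of 7 lists of other mitotic genes (number of genes in brackets) for 5 comparisons, with dotted lines at the median of all genes tested. All 7 medians lie below 0 with mir1301-3p (green circles, -0.42 to -0.65) and above 0 with mir1271-5p (blue triangles, 0.21 to 0.54).

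The mir124-3p libraries split the members. After scaling, CDC20, AURKA and CDC25C had all 4 mir124-3p libraries above the other 12, as 10.6% of 18271 genes did. CDK1, CCNB1 and TTK had all 4 below, as 8.14% did. AURKA had 158 CPM in the Solid library and 215, 212 and 201 in the Illumina libraries, against 22 to 64 in the other 12. CDC25C had 70.1 and then 53, 48 and 63.7, against 10.6 to 37.6. Without scaling factors it overlapped, with 45.4 and 36.7 CPM in Illumina replicates 1 and 2 against 48.1 in mir1301-3p replicate 1. TTK had 28.6 and then 34, 56.9 and 23.2, against 66.8 to 185. CDK1 had 201 and then 131, 178 and 153.5, against 276 to 784, and CCNB1 243 and then 182, 191 and 189, against 269 to 594. The counts of AURKA per TTK count were between 3.72 and 8.68 in the 4 libraries and between 0.163 and 0.618 in the other 12. The ratio does not depend on scaling. With AURKA above and TTK below in all 4 libraries, it had to separate and is no further support. TNRC6A took 5.11% of the counts in the Solid library and 4%, 1.07% and 3.97% in the Illumina libraries, against 0.665% to 1.49% in the 12. Illumina replicate 2 was thus within the range of the 12 for TNRC6A. AURKA in replicate 2 lay between its values in replicates 1 and 3. CDC20 was lower in replicate 2 (67.8 CPM against 114 and 120) and TTK was higher. The part of TNRC6A in the member values was not tested. Anything else that sets the 4 libraries apart cannot be told apart from mir124-3p itself.

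Against the mean of the 6 miRNAs, 4 members were called in the Solid library, where 8.89% of 18135 genes were (1326 higher, 287 lower). CDC20 was higher by 2.49 ± 0.33 (edgeR adjusted p = 1.53e-04), AURKA by 2.07 ± 0.35 (adjusted p = 0.0014) and CDC25C by 1.51 ± 0.37 (adjusted p = 0.0169). TTK was lower, at -2.14 ± 0.61 (adjusted p = 0.0357), a call that was lost when any of 4 libraries of mir1180-3p or mir550-3p was left out (adjusted p from 0.0556 to 0.0604). CDK1, at -1.35 ± 0.44, missed the threshold (edgeR adjusted p = 0.0616). It passed with DESeq2 (adjusted p = 0.0143), upper-quartile scaling (0.023), the fit of 16 libraries (0.0369) and with mir1301-3p left out of the reference (0.0474). Upper-quartile scaling also called TOP2A (-1.24, adjusted p = 0.0463), at -1.07 ± 0.42 in the main comparison (adjusted p = 0.128). WEE1 differed by -0.27 ± 0.42 (adjusted p = 0.727) with mir1180-3p in the reference and by 0.14 ± 0.40 without it (adjusted p = 0.871). The CDC20 difference was 2.73 ± 0.33 without mir1180-3p (adjusted p = 8.09e-05). The group is 1 library, which was assumed to vary like the others.

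Of the 119 other mitotic genes in the Solid library 10 were called higher and 2 lower. That is 10.1%, near the 8.89% of all genes, and their median was 0.02 against -0.12. Of the CDK1 switch, the phosphatase scaffold PPP2R1A (2.95 ± 0.35, edgeR adjusted p = 6.18e-05), CHEK2 (2.03) and BTRC (1.57) were higher. Of the spindle checkpoint, ZW10 (2.39 ± 0.34, adjusted p = 2.93e-04) and MAD1L1 (1.99) were higher, although the median of that list was -0.76. KIF22 (2.06), TACC3 (2.03), GSG2 (haspin, 2.001), MYBL2 (1.75) and ANAPC7 (1.73) were also higher, while KIF20B (-2.34) and CDC27 (-1.56) were lower. PKMYT1 (0.78 ± 0.38, adjusted p = 0.210) and WEE2 (-0.43 ± 0.62, adjusted p = 0.706) were not called.

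Between the Illumina libraries and the Solid library of mir124-3p, 0 of the 10 members were called by edgeR and 0 by DESeq2, and 0 had an unadjusted p under 0.05, while 21.9% of 18271 genes were called (433 higher, 3563 lower). In that fit 5273 genes had an unadjusted p under 0.05, and the median of all genes was -0.39. Member differences lay between -0.46 ± 0.53 (CDC25A) and 0.41 ± 0.55 (TTK). Leaving out Illumina replicate 2 or any other library left the count at 0. PKMYT1 (-1.69 ± 0.43, adjusted p = 0.00668) and WEE2 (-2.65 ± 0.63, adjusted p = 0.00385) were lower in the Illumina libraries, and without Illumina replicate 2 PKMYT1 was not called (-1.08, adjusted p = 0.101). UBE2S (3.54), CDC26 (2.92), ANAPC1 (1.89) and CKS1B (2.75) were higher there. In all, 5 of the 119 other mitotic genes were called higher and 3 lower.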

How the data were processed

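The values are raw gene counts as the authors deposited them, in a table of 16 libraries with 1 RefSeq mRNA to each of 19077 entries and no normalisation. TopHat2 and hg19 are named in the submitters' processing notes; versions, counting tool and strand setting were not given in the sources used here. Members and gene lists were chosen with earlier results of these data known, so no list is independent support. Named genes were the 10 members, at most 3 called genes per list and comparison by adjusted p, the 5 genes most like WEE1 and CDC20, PKMYT1 and WEE2; BTRC with mir1301-3p was named after its values were seen.

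Tests were run in edgeR 4.0.16 under R 4.3.3 (filterByExpr, trimmed mean of M values, robust quasi-likelihood F tests, two-sided). A call is an adjusted p under 0.05 (Benjamini-Hochberg, every gene in that fit counted); p-values are edgeR's unless DESeq2 1.42.0 is named. Each miRNA was compared with the average of the other 5. Errors are standard errors of the contrast or SDs over libraries. The prior count in log2 CPM was 2. Intervals of shares are 95% Wilson intervals and cover counting error only. RefSeq accessions matched current names for 18556 entries. The steps were tested on simulated data. Alternatives were other scaling, DESeq2, no filter, other references, a replicate block and leaving out each library.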

Additional observations from a re-analysis of the deposited data

How the results depend on the processing

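The WEE1 difference of mir1180-3p (2.51) kept its direction in all 19 alternatives, between 2.37 and 2.69 under other settings and between 2.26 and 2.73 with 1 library left out. The alternatives reuse the values by which WEE1 was chosen and are no independent support. With mir124-3p_Solid as the reference, CDC20 turned to -1.32 for mir1180-3p, and the members called rose from 0 to 3 for mir1260a-5p, 2 for mir1271-5p, 2 for mir3613-5p and 1 for mir550-3p. This reference also gave CDC20 at -2.45 (mir1260a-5p) and -2.31 (mir550-3p), and for mir1301-3p CDK1 at 0.64, CCNB1 at 0.36, TTK at 2.12, TOP2A at 0.14, BTRC at -0.83, CDC27 at 0.81 and KIF18A at 0.12, all on the other side of 0 from the main value. For mir550-3p, DESeq2 and the fit of 16 libraries each called 1 member, and among the 5 miRNAs DESeq2 called 1. For mir1301-3p, upper-quartile scaling and a reference without mir1180-3p each left 1 member called, and leaving out 1 library gave between 0 and 3; for mir124-3p_Solid it gave between 3 and 5. The mir1260a-5p, mir1271-5p, mir3613-5p, mir550-3p, 5-miRNA and platform counts stayed at 0 with any library left out.

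The main fits did not pair libraries by replicate number. Of 15 pairs of groups 6 had a correlation of deviations over 0.1, from -0.142 to 0.365. Whether libraries of the same number share an effect was not tested. With the replicate number as a block, WEE1 was at 2.58 for mir1180-3p, 3 members were called for mir1301-3p and 0 in the other comparisons of the 6 miRNAs; genes called among the 5 miRNAs went from 582 to 920. Counts of all genes called also moved by over 1.5 times with DESeq2 for mir1180-3p (366 to 691), mir1260a-5p (38 to 64), mir3613-5p (16 to 135), mir550-3p (266 to 863), the 5 miRNAs (582 to 2682) and mir124-3p_Solid (1613 to 2659). Upper-quartile scaling gave 4438 for mir1301-3p, 50 for mir1271-5p, 9 for mir3613-5p and 1673 among the 5. Without either of its own libraries, all genes called fell to 172 and 170 for mir1180-3p, 114 and 142 for mir1301-3p, and 32 and 9 for mir550-3p. The median of all genes under upper-quartile scaling was 0.38 for mir1301-3p, 0.09 for mir1180-3p, -0.30 for mir124-3p_Solid, -0.17 for mir550-3p, -0.18 for mir3613-5p and -0.19 for mir1271-5p. The cause of these changes was not tested. Leaving mir1301-3p out of the mir124-3p_Solid reference, and mir1180-3p out of any reference, was chosen after seeing the data; the latter kept 0 members called for mir1260a-5p, mir1271-5p, mir3613-5p and mir550-3p and 4 for mir124-3p_Solid.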
